A study of Mus musculus with 11 samples.

Results

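Mitosis and spindle genes are 36 genes whose products carry a cell from the end of G2 through chromosome condensation, spindle assembly, segregation and cytokinesis. They were taken as a list by gene symbol, by a rule that uses no measured value, though chosen with earlier results of these data known. They were followed through 11 RNA sequencing libraries of mouse embryonic brain. All 36 symbols matched 1 gene each among 46078 gene identifiers, and all 36 passed the filter on low counts in each of 3 comparisons. All mice were of the CD-1 strain. In the electroporation experiment, wild-type embryos received either the plasmid pCIG2, which carries GFP, or pCIG2-L3mbtl3 in the dorsal telencephalon, the part of the forebrain that becomes the neocortex. Electroporation was at E12.5 (embryonic age in days), and the cells with GFP were isolated by flow cytometry at E15.5 (3 GFP control libraries and 3 L3mbtl3 gain libraries). The plasmid enters only some of the cells beside the ventricle, and the sorted cells are those and their progeny. In the second experiment, dorsal telencephalon was dissected at E12.5 without sorting from L3mbtl3 +/- embryos (2 heterozygote libraries), wild-type tissue (1 library) and L3mbtl3 -/- embryos (2 libraries). Heterozygote and wild-type libraries form the 3 E12.5 controls, as in the series' design, so 2 of these 3 controls lack 1 copy of L3mbtl3. How many embryos entered a library is not stated in the sources used here, and p-values therefore describe the spread between these libraries, which may be partly technical.

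Mitosis is driven by cyclin-dependent kinase 1 with its A and B cyclins, and by the Polo and Aurora kinases. These genes are transcribed late in the cell cycle, under the DREAM and MuvB complexes, B-MYB and FOXM1, which act through CHR elements (cell cycle genes homology regions), and NF-Y, which binds CCAAT boxes. Kinetochores hold chromosomes to microtubules, the spindle checkpoint delays anaphase until all are attached, and the anaphase-promoting complex with Cdc20 then has cyclin B and securin degraded. In the embryonic cortex apical progenitors divide at the ventricular surface and intermediate progenitors divide away from it, while neurons have left the cycle. Transcripts of these genes therefore mark the cycling part of the tissue.

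Library totals ran from 16527551 to 26658718 counts at E12.5 and from 18266535 to 20895655 at E15.5. Levels are given as CPM (counts relative to the library size), scaled with the TMM factors of edgeR over all 11 libraries. Values are listed in the order heterozygote 1, heterozygote 2 and wild-type for the E12.5 controls, and in the order of the replicate number elsewhere. L3mbtl3, a chromatin protein with MBT domains, measured 54.0, 50.3 and 60.0 CPM in the GFP controls, against 1517, 1262 and 897 CPM after its gain (log2 fold change 4.49, SE 0.217, edgeR adjusted p = 0.00136). It measured 55.8, 58.0 and 58.3 CPM in the E12.5 controls and 67.2 and 70.5 CPM in the libraries labelled knockout (0.27, SE 0.0539, edgeR adjusted p = 0.0128). L3mbtl3 was thus not lower in the libraries labelled knockout, which are called so throughout, and a count over the whole gene cannot tell whether part of it is missing. By Xist and Y-linked counts 2 of 3 gain libraries and 1 of 2 libraries labelled knockout were female, and the other 8 libraries were male. Markers of the labelled tissue were present, with 10 apical progenitor markers summing to 3002 to 3071 CPM in the E12.5 controls and 10 neuron markers to 6412 to 9409 CPM in the GFP controls.

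The starts of the mitosis and spindle genes shared short sequence elements. RefSeq promoter windows (GRCm38.p6, 250 bases before to 50 bases after an annotated start) were found for 31 of the 36 members, in 33 windows. There was no window for Ccna2, Aurkb, Kif20a, Tpx2 and Incenp. A CHR-type match (TTTGAA or TTCGAA on either strand) lay in 27 of 33 windows (81.8%, 25 of 31 genes), against 19.2% of all 32851 windows. Within 50 bases of the start it lay in 75.8% of the members' windows and 5.31% of all windows. A CCAAT match on either strand lay in 75.8% of the members' windows (23 genes) and 37.4% of all, and both kinds lay in 69.7% and 7.52%. The matches of both kinds overlapped each other in 1 member window. Windows of 33 listed G1 and S phase genes, of which 26 genes had a window, held the CHR-type match in 20.7% and CCAAT in 69.0%. The CHR-type match lay in 56.0% of windows of the other mitotic regulators listed, 55.2% of other spindle genes, 40.6% of other centromere genes and 16.7% of the anaphase-promoting complex, and CCAAT in 72.7% of the 11 windows of neuron markers. The 6 members without a CHR-type match in the window were Ccnb1, Cenpe, Nuf2, Nusap1, Birc5 and Mad2l1. These are counts of letters, not of bound sites.

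The stretches from 120 bases before to 20 bases after the start are shown for 9 members on which the results below turn, 5' to 3' on the strand of the gene, with CHR-type and CCAAT matches on either strand in capitals. Cenpf, Top2a and Mki67 had some of the largest differences between stages, and Cdc20 and Ube2c the smallest. Plk1 and Ccnb2 were among the members with the largest differences in the libraries labelled knockout, and Cdk1 is the kinase that the cyclins bind. Mad2l1 has neither match in its window, and nor have Nuf2, Nusap1 and Birc5. The windows lie at chr1:189688067-189688206 (minus strand), chr11:99024170-99024309 (minus strand), chr7:135716360-135716499 (minus strand), chr4:118437324-118437463 (minus strand), chr2:164769809-164769948 (plus strand), chr7:122159315-122159454 (plus strand), chr9:70421535-70421674 (minus strand), chr10:69352893-69353032 (minus strand) and chr6:66535101-66535240 (plus strand). The CHR-type match of Plk1 starts 31 bases after its start and so outside the stretch shown. The start that RefSeq gives for Mad2l1 lies upstream of the gene's first base in the annotation used for counting. The whole Mad2l1 window ends before that base.
Cenpf: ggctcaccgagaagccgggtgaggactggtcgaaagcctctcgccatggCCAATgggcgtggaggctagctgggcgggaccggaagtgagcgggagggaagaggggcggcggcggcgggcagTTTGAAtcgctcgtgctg
Top2a: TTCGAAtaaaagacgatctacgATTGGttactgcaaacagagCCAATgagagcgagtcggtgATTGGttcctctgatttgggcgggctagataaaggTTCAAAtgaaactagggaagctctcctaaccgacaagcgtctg
Mki67: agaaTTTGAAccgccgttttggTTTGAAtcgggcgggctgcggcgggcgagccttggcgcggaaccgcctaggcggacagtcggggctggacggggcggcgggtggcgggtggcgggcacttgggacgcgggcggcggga
Cdc20: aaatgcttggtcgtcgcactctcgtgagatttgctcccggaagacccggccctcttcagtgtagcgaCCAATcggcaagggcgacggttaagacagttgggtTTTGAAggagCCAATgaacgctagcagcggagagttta
Ube2c: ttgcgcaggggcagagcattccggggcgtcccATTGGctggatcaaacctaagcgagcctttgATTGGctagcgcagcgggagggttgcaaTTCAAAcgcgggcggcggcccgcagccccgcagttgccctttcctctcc
Plk1: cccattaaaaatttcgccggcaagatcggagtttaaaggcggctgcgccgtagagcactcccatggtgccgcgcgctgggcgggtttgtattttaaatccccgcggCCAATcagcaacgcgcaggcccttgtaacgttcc
Ccnb2: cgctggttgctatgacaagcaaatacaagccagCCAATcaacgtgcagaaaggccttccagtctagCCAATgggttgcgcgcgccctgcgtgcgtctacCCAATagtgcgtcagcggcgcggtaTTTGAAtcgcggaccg
Cdk1: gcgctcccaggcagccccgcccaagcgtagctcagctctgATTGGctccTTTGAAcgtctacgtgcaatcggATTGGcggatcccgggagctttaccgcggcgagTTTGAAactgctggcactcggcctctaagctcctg
Mad2l1: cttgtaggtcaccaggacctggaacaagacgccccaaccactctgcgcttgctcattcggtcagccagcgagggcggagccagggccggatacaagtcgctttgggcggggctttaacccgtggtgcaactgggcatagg

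At E12.5 these genes were well expressed and varied little between libraries. Per kilobase of exon (RPKM, which allows comparison between genes), Top2a, the DNA topoisomerase that untangles sister chromatids, was the highest at 114 ± 1.42 (SD, n = 3 E12.5 controls). Mki67, which encodes the Ki-67 protein that coats mitotic chromosomes, followed at 84.0 ± 0.683 RPKM. The S and G2 cyclin gene Ccna2 (71.9 ± 3.23) and the anaphase activator Cdc20 (69.0 ± 2.79) came next and overlapped within their spread. Cdk1, Plk1, Mad2l1 and Ube2c all lay at 40.7 RPKM and could not be ordered. The lowest were the checkpoint kinase gene Ttk (16.6 ± 0.417) and Nuf2, a microtubule-binding subunit of the outer kinetochore (14.8 ± 0.545). The median over the 36 members was 34.8 RPKM in the E12.5 controls, 35.5 in the libraries labelled knockout, 10.8 in the GFP controls and 7.78 in the gain libraries. Among the 3 E12.5 controls the highest library exceeded the lowest by 1.00 to 1.13 times per member (median 1.05).

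**Figure D1:**
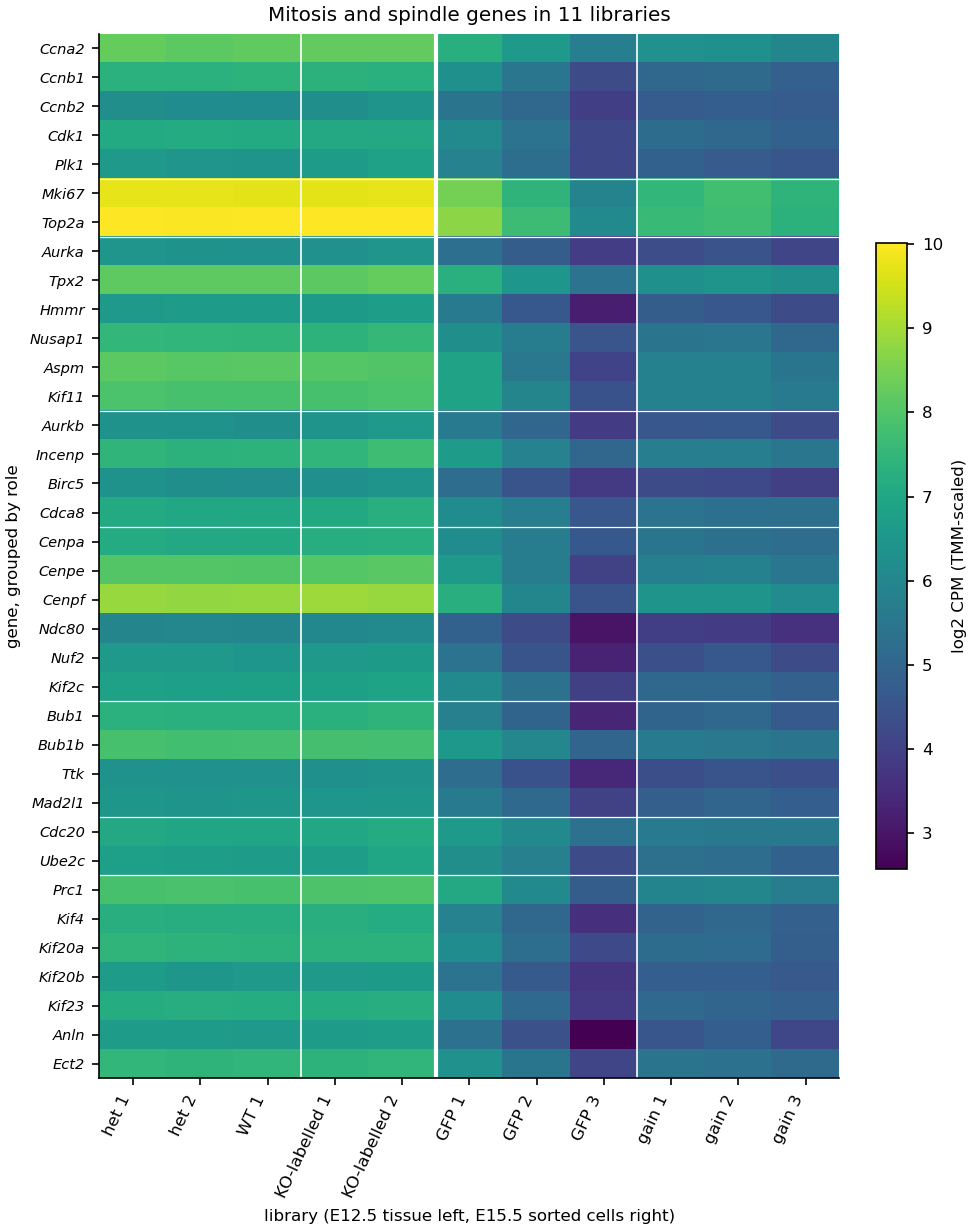
Level of each of the 36 mitosis and spindle genes (vertical axis, grouped by role) in each of the 11 libraries (horizontal axis), as log2 CPM with TMM scaling (colour). White lines separate sample groups and roles. In all 36 genes every E15.5 library lies below every E12.5 library, and GFP control 1 is the brightest and GFP control 3 the darkest of the E15.5 libraries.

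Set against E12.5 dorsal telencephalon, sorted E15.5 cells had much less mRNA of nearly every mitosis gene. The summed level of the 36 genes was 7359, 7155 and 7188 CPM in the E12.5 controls and 3372, 1892 and 803 CPM in the GFP controls, so that the mean of the second group was 28.0% of the first (2022 ± 1289 against 7234 ± 109 CPM, SD, n = 3 each). Tested by edgeR's quasi-likelihood method and adjusted over 15968 genes after Benjamini and Hochberg, 35 of 36 members fell, where 31.3% of all genes tested fell and 31.1% rose. The median log2 fold change was -1.78 over the members and -0.02 over all genes. The 36 members did not overlap between the groups (all lower at E15.5), as was the case for 37.7% of all genes. Age, sorting, electroporation and tissue preparation all differed between these groups and cannot be told apart, nor can fewer cycling cells from less mRNA per cell. L3mbtl3 genotype differed in part as well, since the E12.5 controls include heterozygotes and the GFP controls come from wild-type embryos. The count of members that fell was 16 without GFP control replicate 2 and 20 with no filter on low counts. It was 27, 28 and 26 without heterozygote 1, heterozygote 2 and the wild-type library. With 1 library left out, Aurkb, Cdc20, Kif11, Kif23, Kif2c, Plk1 and Prc1 each lost their call in 4 settings. Their highest edgeR adjusted p ran from 0.0760 to 0.0988. Aspm lost its call in 3 settings and Hmmr in 2. With library totals in place of TMM factors the median of all genes moved to -0.30 and the genes that rose and fell numbered 3590 and 6525 in place of 4963 and 4992, while 36 of 36 members fell.

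The cyclin genes, Cdk1 and the Polo kinase gene Plk1, 5 genes in all, fell with a median of -1.55. Ccnb1, the B-type cyclin that activates Cdk1 at mitotic entry, measured 160.2, 161 and 166 CPM in the E12.5 controls and 78.4, 44.8 and 19.8 CPM in the GFP controls. All 3 sorted libraries lay below the E12.5 libraries, the third by the widest gap, and Ccnb1 fell by 1.77 (log2, SE 0.437, edgeR adjusted p = 0.0115). Cdk1 itself measured 139, 143 and 139 CPM and 70.1, 42.0 and 18.0 CPM in the same order, a log2 fold change of -1.69 (SE 0.429, edgeR adjusted p = 0.0129). Plk1, the Polo kinase of mitotic entry and spindle poles, measured 95.4, 88.0 and 85.6 CPM against 58.8, 38.0 and 18.1 CPM. Its fold change was smaller, at -1.22 (SE 0.375, edgeR adjusted p = 0.0264). Ccna2 stood at -1.55 (SE 0.337) and the second B-type cyclin gene Ccnb2 at -1.27 (SE 0.331), both of which fell.

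Both chromosome structure genes fell steeply. Mki67 measured 852, 847 and 838 CPM in the E12.5 controls and 355, 169 and 59.3 CPM in the GFP controls, a log2 fold change of -2.12 (SE 0.570, edgeR adjusted p = 0.0161). Top2a went from 1034, 1010.4 and 1031 CPM to 426, 205 and 70.3 CPM, at -2.13 (SE 0.574, edgeR adjusted p = 0.0161). In each gene the GFP controls were far apart from each other, while the E12.5 controls were close together.

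The 6 spindle assembly genes had a median of -1.81, and all 6 fell. Aspm, the spindle pole protein whose loss causes microcephaly, measured 279, 270.3 and 278 CPM in the E12.5 controls and 117, 46.4 and 16.7 CPM in the GFP controls, or -2.20 (SE 0.616, edgeR adjusted p = 0.0188). Kif11, the kinesin that pushes spindle poles apart, measured 239.7, 229 and 232 CPM and 115, 62.4 and 21.6 CPM, or -1.81 (SE 0.523, edgeR adjusted p = 0.0212). The GFP controls again did not reach the E12.5 libraries in either gene. Hmmr, a microtubule-binding spindle protein, stood at -1.86 (SE 0.520), and Nusap1, which bundles spindle microtubules, at -1.80 (SE 0.386). Aurka, the kinase of centrosomes and spindle poles, stood at -1.63 (SE 0.305), and Tpx2, which activates it, at -1.57 (SE 0.420).

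The chromosomal passenger complex corrects faulty attachments and later directs cytokinesis, and its 4 genes fell by less (median -1.40). Aurkb, its kinase, measured 81.9, 84.1 and 76.9 CPM in the E12.5 controls and 49.9, 32.4 and 14.7 CPM in the GFP controls, at -1.32 (SE 0.388, edgeR adjusted p = 0.0226). Birc5 (survivin), which brings the complex to the centromere, measured 81.7, 77.6 and 75.2 CPM and 37.6, 22.6 and 14.3 CPM, at -1.65 (SE 0.320, edgeR adjusted p = 0.00418). The scaffold gene Incenp stood at -1.38 (SE 0.373) and Cdca8 (borealin) at -1.42 (SE 0.355).

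Among the 6 centromere and kinetochore genes (median -1.82) was the largest fall of all 36. Cenpf, a long coiled-coil protein of the outer kinetochore, measured 471, 451 and 457 CPM in the E12.5 controls and 151, 63.4 and 22.7 CPM in the GFP controls, so that the mean of the sorted cells was 17.2% of the tissue level. Its log2 fold change was -2.54 (SE 0.610, edgeR adjusted p = 0.0102). Ndc80, the core microtubule coupler, measured 62.8, 65.3 and 62.9 CPM and 29.8, 19.8 and 7.73 CPM and fell by 1.73 (log2, SE 0.424, edgeR adjusted p = 0.0110), and its partner Nuf2 stood at -1.91 (SE 0.461). The kinetochore motor gene Cenpe stood at -2.21 (SE 0.554). Cenpa, the histone variant that defines the centromere, and Kif2c, a microtubule depolymerase, fell by less, at -1.46 (SE 0.353) and -1.43 (SE 0.459).

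The 4 spindle checkpoint genes had a median of -1.81. Bub1, the kinase that starts checkpoint signalling at kinetochores, measured 162, 156 and 156 CPM in the E12.5 controls and 56.7, 31.4 and 10.3 CPM in the GFP controls, at -2.26 (SE 0.531, edgeR adjusted p = 0.00928). Bub1b (BubR1) stood at -1.81 (SE 0.350), Ttk (Mps1) at -1.80 (SE 0.398) and Mad2l1 (Mad2), which binds Cdc20 to hold back anaphase, at -1.41 (SE 0.360), and all 3 fell. The partners of the anaphase-promoting complex in the list differed least between the stages. Ube2c, the ubiquitin-conjugating enzyme that starts chains on its substrates, measured 108, 105 and 104 CPM and 75.9, 56.4 and 19.4 CPM and did not pass, at -1.06 (SE 0.431, edgeR adjusted p = 0.0686). Its groups did not overlap, although the first GFP control stood much nearer to the tissue than the third. Cdc20 went from 135, 127 and 125 CPM to 95.8, 68.4 and 41.5 CPM and fell by 0.91 (log2, SE 0.273, edgeR adjusted p = 0.0248), the smallest difference of the 36.

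All 7 genes of the central spindle and of cytokinesis fell (median -1.89). Anln (anillin), which scaffolds the contractile ring, stood at -2.13 (SE 0.581) and the chromokinesin gene Kif4, which lies on the X chromosome, at -2.11 (SE 0.491). Kif20a, which carries the passenger complex to the midzone, stood at -1.95 (SE 0.445) and its relative Kif20b, needed for abscission in cortical progenitors, at -1.86 (SE 0.384). Ect2, the exchange factor that activates RhoA at the equator, stood at -1.89 (SE 0.484) and Kif23, the motor of centralspindlin, at -1.83 (SE 0.519). Prc1, which cross-links antiparallel microtubules in the midzone, stood at -1.61 (SE 0.501). Over all 36 members the fold change went with exon length, with a Spearman correlation of -0.71 across the members against -0.04 across all 15968 genes tested, which are genes of the same libraries and no independent points.

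**Figure D2:**
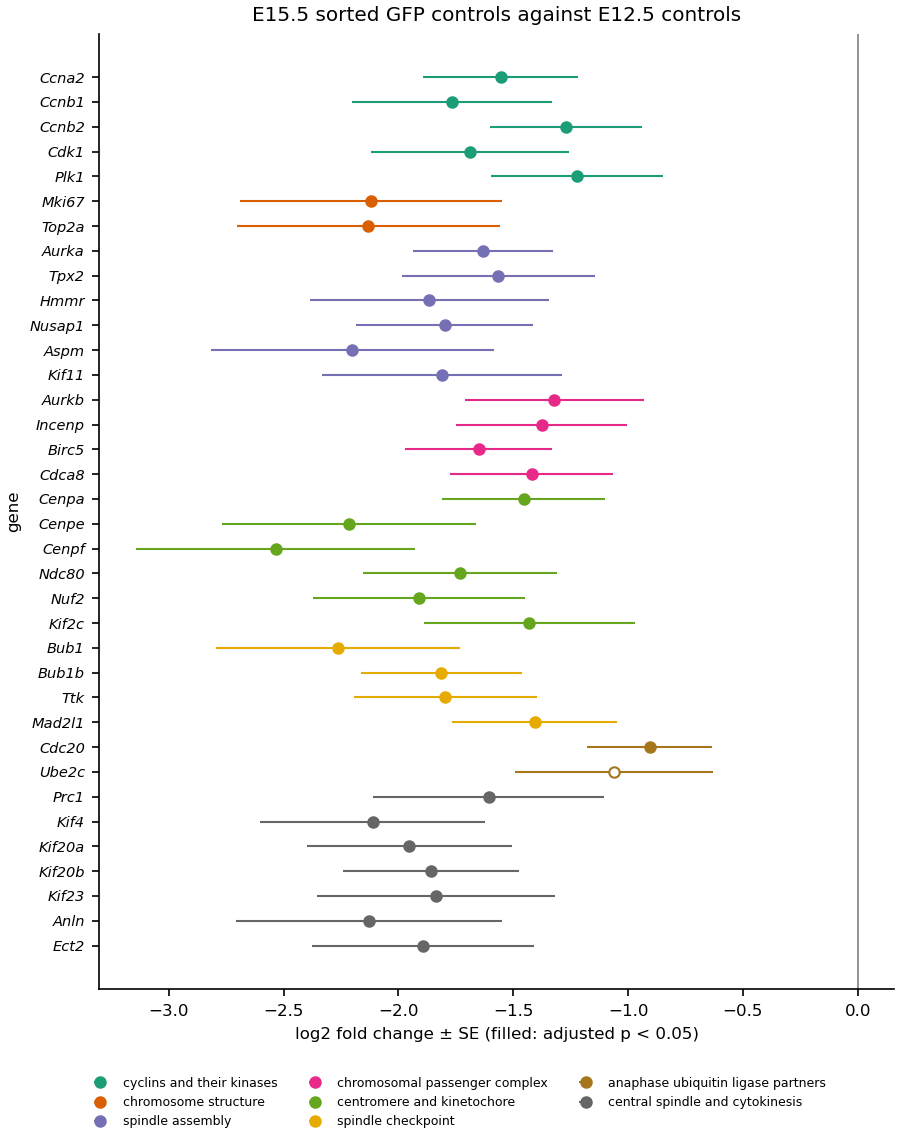
Log2 fold change with its SE (horizontal axis) of each of the 36 genes (vertical axis, coloured by role) in sorted E15.5 GFP controls against E12.5 controls (n = 3 each). Filled points passed edgeR's test at an adjusted p under 0.05. All points lie left of 0, from -2.54 for Cenpf to -0.91 for Cdc20, and the open point is Ube2c.

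Other genes of the same machinery mostly went with the members between the stages, with the ubiquitin ligase of anaphase as the exception. Of 32 other centromere and kinetochore genes 30 fell and 2 rose (median -1.52). Among them Cenpw, a histone-fold subunit of the inner kinetochore, stood at -2.40 (SE 0.268, edgeR adjusted p = 0.000404), while Cenpt, its neighbour in that complex, rose by 0.57 (SE 0.0793, edgeR adjusted p = 0.000973). Of 29 other spindle and kinesin genes 23 fell and 1 rose, and of 30 other mitotic regulators 21 fell and 1 rose. The genes that rose there were Tubg1, gamma-tubulin, at 0.28 and Mad2l2 at 0.69. Condensin had 7 of 8 subunit genes lower by the test, with Ncapg2 at -2.48, and the cohesin list 10 of 11, with Smc1a at -0.66. Of 33 G1 and S phase genes 29 fell, with a median of -1.40. The 16 genes of the anaphase-promoting complex list, by contrast, had 4 that rose and 4 that fell, and their summed level was 2158 ± 50.5 CPM in the GFP controls and 2131 ± 7.83 CPM in the E12.5 controls (SD, n = 3 each). Fzr1 (Cdh1), the activator that takes over from Cdc20 at mitotic exit and acts in G1 and in neurons, rose by 0.89 (SE 0.0820, edgeR adjusted p = 0.000185). Ube2s, which extends ubiquitin chains, rose by 0.73 and the catalytic subunit Anapc2 by 0.61, while the large scaffold subunit Anapc1 fell by 0.93 on the log2 scale. That sum was lower at E15.5 with DESeq2 size factors (2121 and 2173 CPM) and with library totals (1984 and 2357 CPM), where 3 of the 16 rose and 7 fell. The calls of Tubg1 and of Cenpx, the other risen centromere gene at 0.58, were lost with library totals (0.01 and 0.30) and without GFP control 2 or any single E12.5 control (edgeR adjusted p of 0.0530 to 0.0962 and 0.101 to 0.130). That of Tubg1 was also lost with no filter on low counts (0.25, edgeR adjusted p = 0.0752). That of Cenpx was also lost with DESeq2 size factors and without GFP control 3 (edgeR adjusted p = 0.0586 and 0.0652).

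Cell type markers differed between the stages as well. Of 10 neuron markers 10 rose (median 1.75), from 2247 ± 124 CPM summed in the E12.5 controls to 7719 ± 1535 CPM in the GFP controls (n = 3 each). Of 10 apical progenitor markers 7 fell, from 3041 ± 35.7 to 1347 ± 629 CPM summed. The mitosis genes, at 28.0% of their E12.5 sum, stood lower than these markers at 44.3%, being 2.33 to 2.41 times the apical sum in the E12.5 controls and 1.18 to 1.75 times in the GFP controls. Relative to the G1 and S phase sum they stood at 1.59 to 1.64 in the E12.5 controls and at 1.44, 1.13 and 0.718 in the 3 GFP controls. Markers of endothelial cells (8 of 8), erythroid cells (7 of 7), meninges (6 of 6) and choroid plexus (6 of 6) also fell, with a summed level per list of at most 106 CPM in any GFP control against at least 411 in any E12.5 control. The part of these cell types in the level of the mitosis genes was not tested.

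**Figure D3:**
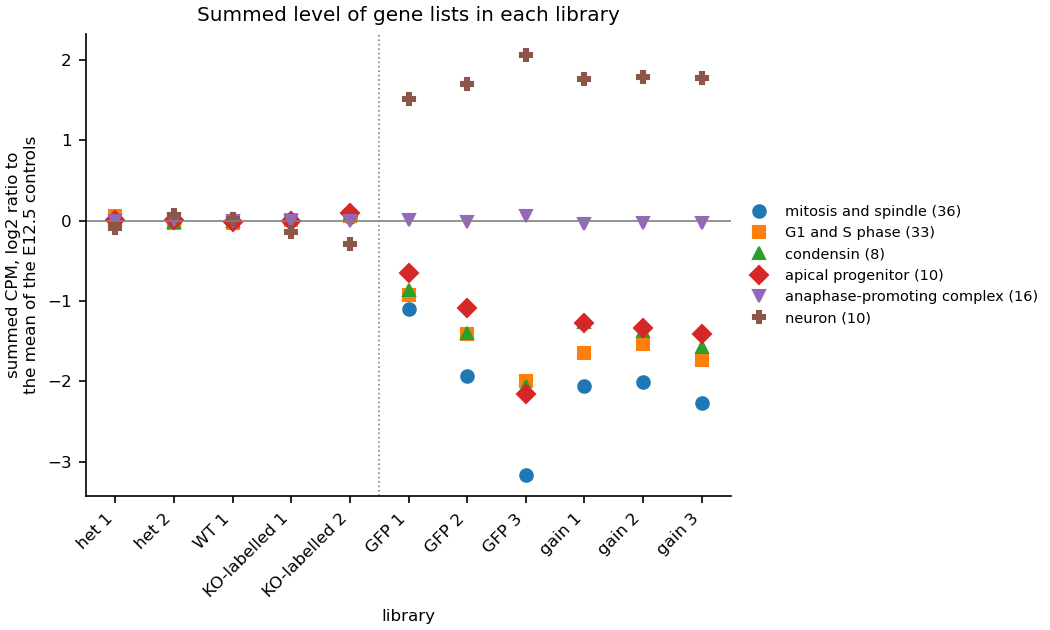
Summed CPM of 6 gene lists in each library (horizontal axis), as the log2 ratio to the mean of the E12.5 controls (vertical axis, number of genes in parentheses). In the 6 sorted libraries, right of the dotted line, mitosis and spindle genes (circles) are the lowest list, the anaphase-promoting complex stays near 0 and neuron markers lie above 1.

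The 3 GFP controls, which share 1 label, differed widely from each other in these genes. Replicate 1 was above replicate 2 and replicate 2 above replicate 3 in 36 of 36 members. The highest library exceeded the lowest by 2.31 to 6.99 times per member (median 3.90), against 1.06 to 1.54 times (median 1.23) among the gain libraries. Aspm had the widest ratio, at 117, 46.4 and 16.7 CPM, and Cdc20 the narrowest, at 95.8, 68.4 and 41.5 CPM. The apical progenitor sum went the same way, at 1932, 1428 and 681 CPM in GFP controls 1, 2 and 3, as did the G1 and S phase sum (2344, 1673 and 1119 CPM) and the sum of 9 ventral telencephalon markers (820, 262 and 15.0 CPM). Neuron markers went the other way, at 6412, 7336 and 9409 CPM, while the anaphase-promoting complex stood at 2144, 2116 and 2214 CPM. The part of cell composition in this spread was not tested.

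More L3mbtl3 in the electroporated cells was not accompanied by a detectable difference in any mitosis gene. With edgeR's quasi-likelihood test, 0 of 36 members rose or fell in the gain libraries against the GFP controls, 0 had an unadjusted p under 0.05, and DESeq2 called 0. Over all 14698 genes tested edgeR called 2 (0.0136%), 1264 had an unadjusted p under 0.05, and DESeq2 called 122. The groups overlapped in every member, whereas 9.08% of all genes were higher and 7.5% lower with no overlap, and all 3 gain libraries lay between GFP controls 3 and 1 in 36 of 36 members. The summed level was 1742, 1793 and 1499 CPM in the gain libraries (1678 ± 157, SD, n = 3), within the range of the GFP controls (803 to 3372 CPM). The fold changes had a median of -0.31 over the members and -0.03 over all genes, and 33 of 36 were negative. These controls are the same libraries as in the comparison between stages.

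Single genes showed how wide the GFP controls made these estimates. Mki67 measured 179.8, 215 and 172 CPM in the gain libraries (mean 189 ± 23.0 CPM, SD, n = 3) against 194 ± 149 CPM in the GFP controls (n = 3), a log2 fold change of -0.04 (SE 0.537, edgeR adjusted p = 0.980). Top2a measured 196, 209.8 and 162 CPM, or -0.30 (SE 0.542, edgeR adjusted p = 0.852). Cdk1 measured 36.6, 34.2 and 29.4 CPM, or -0.37 (SE 0.423), and Ccnb1, with the largest difference of the 36, 33.7, 35.2 and 29.0 CPM, or -0.55 (SE 0.429, edgeR adjusted p = 0.686). Plk1 stood at 29.6, 26.1 and 23.5 CPM, or -0.53 (SE 0.377), and Bub1 at 31.6, 33.3 and 25.8 CPM, or -0.12 (SE 0.514). Each of these gain levels lay inside the range of the 3 GFP controls given above. Cdc20 had the smallest p, with gain libraries at 50.2, 47.6 and 47.7 CPM at -0.50 (SE 0.272, edgeR adjusted p = 0.617). Cenpf, at 86.5, 85.3 and 72.0 CPM, had a positive fold change of 0.04 (SE 0.568), as had Anln at 0.02 (SE 0.577) and Kif20b at 0.00 (SE 0.377). Aurkb (24.1, 24.6 and 19.6 CPM), Ndc80 (15.49, 14.98 and 12.4 CPM), Kif11 (57.0, 57.3 and 50.6 CPM), Aspm (57.4, 56.8 and 44.5 CPM), Ube2c (40.2, 37.4 and 29.5 CPM) and Birc5 (19.7, 18.5 and 15.9 CPM) likewise lay inside the range of the GFP controls.

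The direction of the gain comparison rested on single GFP controls. Without GFP control 1 the members' median was 0.25 with 29 of 36 positive. Without GFP control 3 it was -0.66 with 36 negative, and 25 had an unadjusted p under 0.05, none of them called. Of all 15060 genes tested in that setting, 1739 had an unadjusted p under 0.05. Against GFP control 2 alone, a setting chosen after the levels were seen, the mean of the gain libraries was lower in 30 of 36 members and Cdc20 alone was called (-0.48, edgeR adjusted p = 0.0450), with the spread taken from the gain libraries only and the lone control assumed to vary like them. On simulated data of this comparison, 53% of changes of 1 log2 unit and 100% of changes of 2 were found. The simulation gave every gene the same spread between libraries, not that of the members in the GFP controls (2.31 to 6.99 times). Those shares therefore do not say how often a change in a member would be found. Differences of the size seen here could have been missed. Of the 7 other lists of cell cycle machinery edgeR called 0 genes, with 0 to 2 in a list at an unadjusted p under 0.05. DESeq2 called 1 spindle and 1 G1 and S phase gene, both lower. Over all 14698 genes 723 were higher and 541 lower at an unadjusted p under 0.05, and DESeq2 called 78 higher and 44 lower. Microglia markers summed to 7.01 to 9.81 CPM in the gain libraries and 18.4 to 44.4 CPM in the GFP controls, and 8 of 9 were lower at an unadjusted p under 0.05, of which edgeR called 0 and DESeq2 6. Endothelial markers summed to 6.04 to 10.2 and 15.4 to 22.5 CPM, with 4 of 7 lower at an unadjusted p under 0.05, of which edgeR called 0 and DESeq2 1. Ventral telencephalon markers stood at 40.2% of their GFP control sum (median -1.20, 8 of 8 tested negative), and meningeal markers at 28.5% (4 of 4 tested negative). The ventral sums were 217, 211 and 12.8 CPM in the gain libraries against 820, 262 and 15.0 CPM in the GFP controls. The meningeal sums were 8.44 ± 6.35 and 29.7 ± 26.9 CPM in the same order (SD, n = 3 each). In both lists the groups overlapped in every gene tested. An unadjusted p under 0.05 was found in 0 ventral and 1 meningeal gene, and edgeR called 0. Apical progenitor markers stood at 89.2%. Of the gain libraries 2 of 3 were female, where all GFP controls were male. Whether these markers or embryo sex go with the members' levels was not tested.

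**Figure D4:**
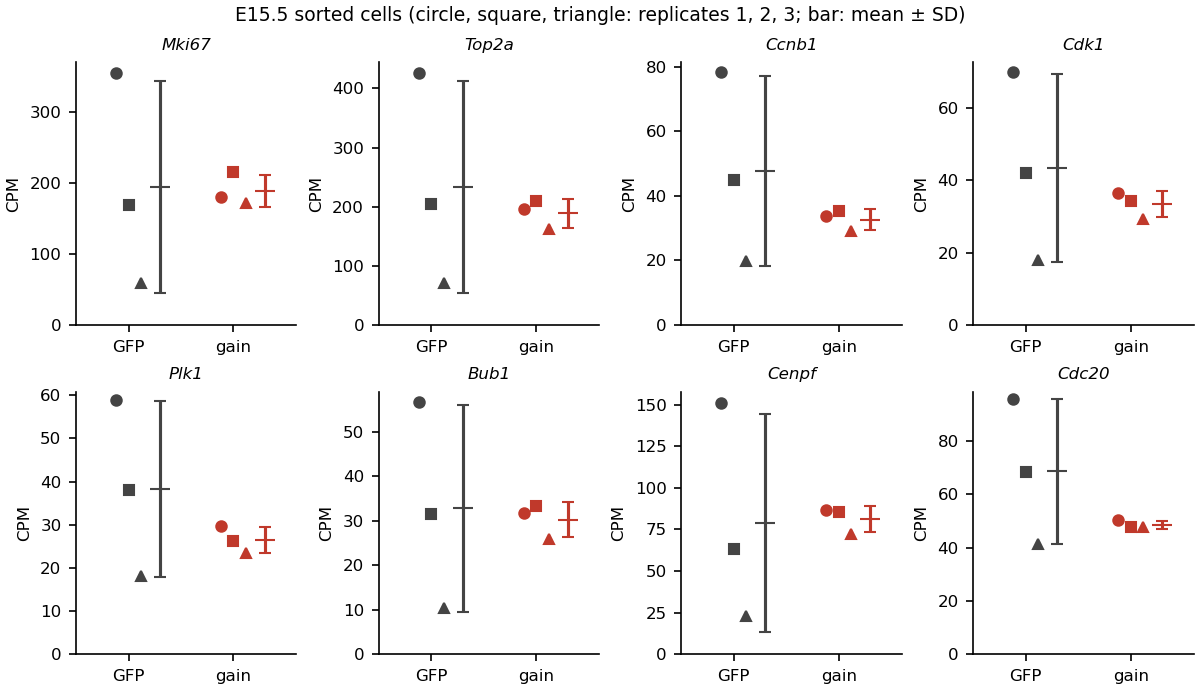
CPM (vertical axes, each from 0) of 8 mitosis genes in the 3 GFP control and the 3 L3mbtl3 gain libraries, with the symbol giving the replicate and the bar the mean ± SD of each group. In each panel the 3 gain libraries lie close together between the highest and the lowest GFP control.

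In the E12.5 libraries labelled knockout, in which L3mbtl3 was not lower, mitosis genes stood close to their level in the controls. Their summed level was 7288 and 7492 CPM (7390 ± 144, SD, n = 2) against 7234 ± 109 CPM (n = 3). Of 36 members 1 rose and 0 fell by edgeR's test, where 3.63% of 16361 genes rose and 3.78% fell. An unadjusted p under 0.05 was found in 7 members, all of them higher. Over the 16361 genes it was found in 3597, of which 1811 were higher and 1786 lower. DESeq2 called 2 members, Plk1 and Incenp, both higher, where it called 483 of the 16361 genes higher and 481 lower. The groups did not overlap in 10 members that were higher and 3 that were lower, against 18.6% and 20% of all genes. The median log2 fold change was 0.04 over the members and 0.00 over all genes, with 25 positive and 11 negative. The E12.5 controls also serve in the comparison between stages.

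Plk1 was the member that rose. It measured 102 and 114 CPM in the libraries labelled knockout, 95.4 and 88.0 in the heterozygotes and 85.6 in the wild-type, at 0.27 (SE 0.0606, edgeR adjusted p = 0.0211). Both libraries labelled knockout lay above all 3 controls. The call was lost without heterozygote 2 (edgeR adjusted p = 0.0831), without the wild-type library (0.0847), without the second library labelled knockout (0.139) and with a single fit over all 11 libraries (1). A term for embryo sex (0.134) amounts to leaving out that second library, the only female one at E12.5. Where 1 library labelled knockout remains, the spread comes from the controls alone and that library is assumed to vary like them. Without the first library labelled knockout, and so on the second alone, the members' median log2 fold change was 0.06. In that setting Plk1 stood at 0.35, Incenp at 0.32, Aurkb at 0.26, Ube2c at 0.24 and Ccnb2 at 0.22. These members were chosen after their values were seen.

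The other members with an unadjusted p under 0.05 did not pass over all genes. Aurkb measured 86.6 and 96.7 CPM in the libraries labelled knockout and 81.9, 84.1 and 76.9 CPM in the E12.5 controls, at 0.18 (SE 0.0583, edgeR adjusted p = 0.0888), and Incenp 177 and 210.5 against 173, 163 and 168 CPM, at 0.20 (SE 0.0666, edgeR adjusted p = 0.115). All 4 passenger complex genes had positive values, from 0.08 to 0.20. Ccnb2 stood at 0.14 (SE 0.0555), Cenpa at 0.12 (SE 0.0419), Ube2c at 0.13 (SE 0.0597) and Prc1 at 0.08 (SE 0.0355). Ube2c measured 107 and 125 CPM against 108, 105 and 104 CPM, so that the first library labelled knockout lay within the controls. The 3 members that were lower without overlap were Cdk1, at 132 and 133 CPM and -0.08 (SE 0.0390), Aspm, at 267 and 254 CPM and -0.08 (SE 0.0402), and Kif20a, at -0.04 (SE 0.0371), none of them called.

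The most abundant members hardly differed. Mki67 measured 841 and 847 CPM and Top2a 1035 and 1025 CPM in the libraries labelled knockout, both close to the controls given above. Cenpf stood at 483 and 471 CPM, Kif11 at 232 and 239.6, Bub1 at 157 and 169.8, Ccnb1 at 164 and 157, Birc5 at 79.5 and 86.2 and Ndc80 at 66.3 and 68.8 CPM. The 2 libraries labelled knockout differed from each other in a common direction, since the second was above the first in 30 of 36 members and the highest of all 5 E12.5 libraries in 22. The second was female and the first male, so that among the E12.5 libraries sex and that library cannot be told apart.

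Of the other genes of the machinery, 1 of 29 spindle and kinesin genes rose in the libraries labelled knockout, Tubg1, by 0.28 (SE 0.0584, edgeR adjusted p = 0.0135), and 1 of 32 centromere genes, Cenpw, by 0.38 (SE 0.0921, edgeR adjusted p = 0.0331). Cenpw measured 29.6 and 37.6 CPM against 26.3, 26.2 and 25.0 CPM in the controls. Both calls were lost without heterozygote 2 (edgeR adjusted p = 0.0603 and 0.0931), without the second library labelled knockout (0.0956 and 0.268, or 0.0897 and 0.239 with the sex term, which removes the same library) and in the single fit over all 11 libraries (0.537 and 1), and that of Cenpw without heterozygote 1 (0.0729) or the wild-type library (0.120). The lists of the anaphase-promoting complex, condensin, cohesin, regulators, and G1 and S phase hold 16, 8, 11, 30 and 33 genes. Of these genes edgeR called 0. In the same order 2, 3, 1, 4 and 6 had an unadjusted p under 0.05, and DESeq2 called 0, 1, 0, 1 and 1. Over all 16361 genes 3597 had an unadjusted p under 0.05, and DESeq2 called 964. Of the cell type markers, choroid plexus markers fell in 6 of 6 cases, to 37.3% of the summed control level, 4 of 7 intermediate progenitor and 4 of 10 neuron markers fell (83.0% and 86.2%), and 3 of 9 ventral telencephalon markers rose. Of 10 apical progenitor markers 2 fell, Slc1a3 at -0.33 and Fabp7 at -0.24, while 7 had positive values. Of 9 microglia markers 1 rose, Fcrls at 0.53, which DESeq2 did not call, while 5 had negative values. The apical progenitor sum stood at 103%, the endothelial at 104%, the microglia at 101% and the mitosis sum at 102%. The part of these markers in the values of the members was not tested.

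**Figure D5:**
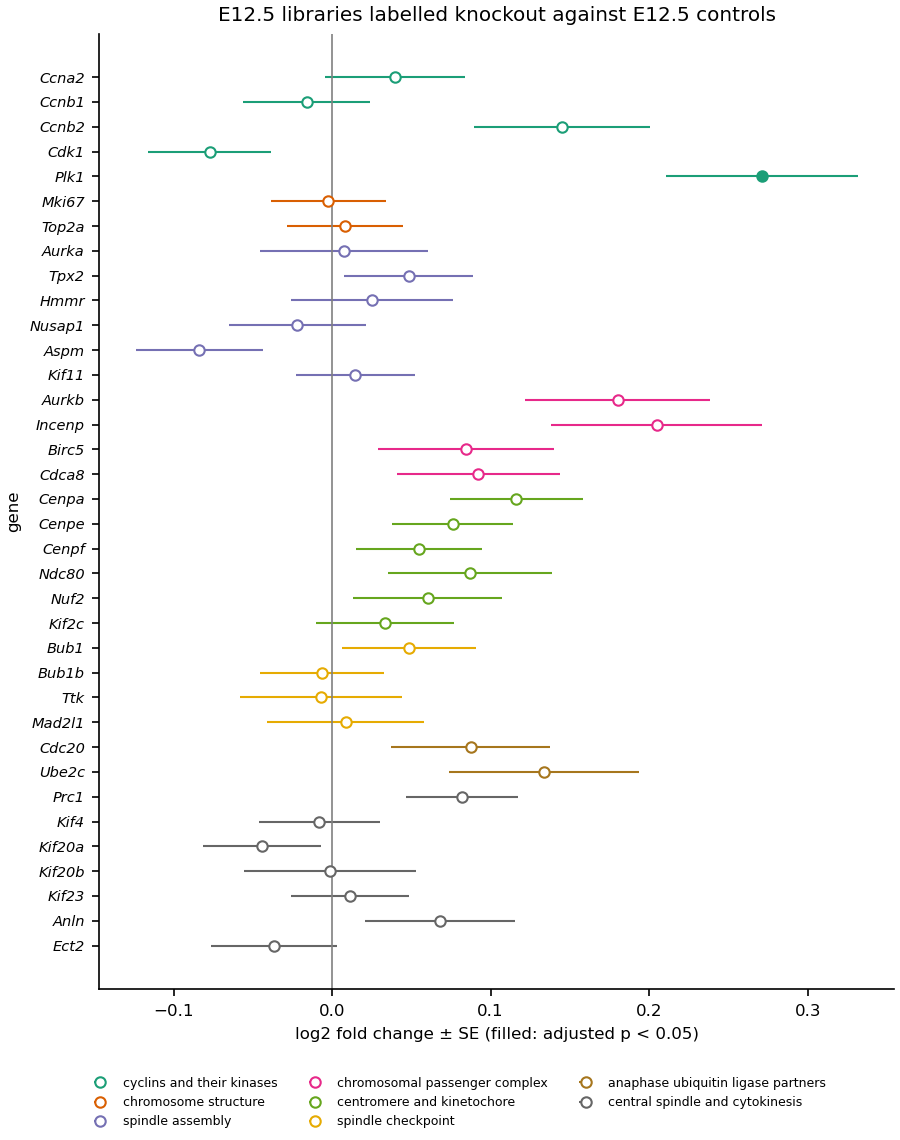
Log2 fold change with its SE (horizontal axis) of each of the 36 genes (vertical axis, coloured by role) in the E12.5 libraries labelled knockout (n = 2) against the E12.5 controls (n = 3). Plk1, at 0.27, is the filled point that passed edgeR's test at an adjusted p under 0.05, and the others lie between -0.08 and 0.20.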

How the data were processed

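The deposited files hold raw counts of reads per gene for 11 libraries, made by the authors from single-end reads of 75 bases of polyadenylated RNA (stranded kit), per the labels' protocols. Counting was with featureCounts 2.0.1 over exons, reverse strand, per the file headers, and the submitters' processing notes also name HISAT2 2.2.1 and GRCm38. The release of the annotation is not given by these sources. The header's command sets no option for reads with several hits, and the pseudogenes Ccnb1-ps, Ccnb2-ps and Kif4-ps held at most 24 counts in any library. Identifiers without a symbol (935) held 0.1117% of counts.

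The members and all lists were chosen with earlier results of these data known. Counts were tested with edgeR 4.0.16 in R 4.3.3 (filterByExpr, TMM, robust quasi-likelihood F-test, two-sided, Benjamini-Hochberg over all genes tested), with only the libraries of each comparison in the fit and no covariates. A gene rose or fell at an adjusted p under 0.05. SE is the absolute log2 fold change divided by the square root of F. CPM and RPKM were computed here. All 36 members are named, with all libraries for a fixed subset, and up to 3 called genes per direction of other lists could be named, of which those that bear on the members are given. Alternatives were DESeq2 1.42.0, DESeq2 size factors, library totals, no count filter, one fit over all libraries, the replicate number as a block, a term for embryo sex, heterozygote controls only, each library left out, and GFP control 2 alone. The fit was tested on simulated counts with known changes and, within a comparison, the same spread (dispersion) for every gene. Of changes of 1 log2 unit it found 53% in the gain comparison (14506 genes), 100% in the labelled knockout comparison (16227) and 75% between stages (15580). E14.5 samples named in the series' design were not analysed here.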

Additional observations from a re-analysis of the deposited data

How the results depend on the processing

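The fall of the mitosis genes between stages kept its direction in 36 of 36 members under each alternative run for it, which did not include the replicate block and the sex term. The members called lower numbered 20 without a count filter and 16 to 36 with a library left out. In the gain comparison the genes called numbered 122 with DESeq2, 97 in one fit over all libraries, 1 with the sex term, 354 against GFP control 2 alone, where 1 member was called lower, and 0 to 415 with a library left out (0 with edgeR without GFP control 2, where 693 had an unadjusted p under 0.05). Of the 36 members 3 had a positive value there, against 29 without GFP control 1, 14 with the replicate block, 6 with the sex term, which sets the 1 male gain library against the controls, and 6 against GFP control 2 alone. Changes of sign among the 10 members followed under every setting were these. With library totals Kif20b was -0.014 and Anln -0.0068, and in one fit Kif20b was -0.000356. With the sex term Mki67 was 0.14 and Bub1 0.019, and against GFP control 2 alone Mki67 was 0.18. With a library left out the values ran from -0.47 to 0.75 for Mki67, -0.73 to 0.48 for Top2a, -0.92 to 0.036 for Ccnb1, -0.74 to 0.18 for Cdk1, -0.54 to 0.56 for Bub1, -0.33 to 0.51 for Kif20b, -0.40 to 0.94 for Cenpf and -0.43 to 0.76 for Anln. The cause was not tested.

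With the replicate number as a block (replicate block), Mki67 was 0.30, Top2a 0.040 and Bub1 0.17 in the gain comparison, the members' median was -0.08 and 3 genes were called. Libraries of the same number deviated together with correlations of 0.18, 0.00724 and 0.284. Gain replicates 1 and 3 went best with the control of their own number, and gain replicate 2 with GFP control 1 (0.133). Deviations within each group of 3 sum to 0, so these correlations are tied to each other. They cannot decide whether the numbers pair the libraries. In the labelled knockout comparison the block left 1 member and 948 genes called, with correlations of -0.0394 to 0.0521 between libraries of the same number.

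In the labelled knockout comparison the genes called numbered 2266 without a count filter, 15 in one fit, 654 with the sex term, 603 with heterozygote controls only and 603 to 1785 with a library left out. Members called higher numbered 3 without a count filter (Plk1, Aurkb and Incenp), 2 with DESeq2, 0 in one fit, with the sex term and with heterozygote controls only, and 0 to 5 with a library left out. The members' median was 0.016 with the sex term and ran from 0.015 to 0.064 with a library left out. Each member had at least 109 counts in every library.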

Other observations

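Replication genes went along with the mitosis genes between the stages. Of the 33 G1 and S phase genes the 3 with the smallest p were Mcm7 and Mcm4, subunits of the replicative helicase, and Gins3, which joins that helicase, at log2 fold changes of -0.96, -1.92 and -1.63 (edgeR adjusted p = 0.000167, 0.000914 and 0.000989). Cks2 and Ccnf, a subunit of cyclin-dependent kinases and an F-box cyclin, stood at -1.72 and -2.03. Subunits of augmin, which branches spindle microtubules, also fell, with Haus1 at -1.26, Haus4 at -0.79 and Haus6 at -1.60. Intermediate progenitor markers were split, with 3 of 7 higher and 1 lower, among them Insm1 at 2.44 and Btg2 at -0.99.

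The fold changes of the 36 members went with exon length in the gain comparison too, with a Spearman correlation of 0.64 across members against 0.26 across all 14698 genes tested, and of -0.31 against 0.01 in the labelled knockout comparison. Comparisons between stages and of gain share the GFP controls, and genes of the same libraries are no independent points. The sum of the members relative to the G1 and S phase sum was 1.23, 1.17 and 1.12 in the gain libraries and 1.62 and 1.61 in the libraries labelled knockout.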
